A study of Homo sapiens with 15 samples.

Results

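The aminoacyl-tRNA synthetases described here were 36 genes of the 17272 in the deposited expression table, chosen by name. Of these, 20 encode the cytosolic enzymes and 16 encode the mitochondrial enzymes, whose symbols end in 2. All 36 had a row in the table, which uses the older symbols (TARS for the gene now called TARS1, for example). The genes were measured by RNA sequencing in LNCaP, a human prostate cancer cell line that depends on androgen and secretes prostate-specific antigen. Every culture was kept for 2 days in medium with charcoal-stripped serum, which is poor in steroids, and then received 1 nM R1881, a synthetic androgen. The R1881 group (10 libraries) carried the vehicle dimethyl sulfoxide in its labels, and the combination group (5 libraries) received R1881 with 2 µM darolutamide, an inhibitor of the androgen receptor. RNA was collected 22 h later. The sample labels and the methods of the study name the group sizes in opposite order and give R1881 in different units of concentration, and the labels were followed here. No culture without R1881 was analysed here, so a lower value with darolutamide is a difference from androgen-treated cells. In bulk RNA, fewer cells of a type and less RNA per cell cannot be told apart.

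An aminoacyl-tRNA synthetase joins an amino acid to its transfer RNA and so supplies the ribosome with charged tRNA. Most amino acids have a separate nuclear gene for the cytosolic enzyme and for the enzyme imported into mitochondria, which serves translation of the mitochondrial genome. GARS and KARS are exceptions, since each gene encodes both forms. Several cytosolic enzymes are held with scaffold proteins in the multisynthetase complex, and many cytosolic synthetase genes are known targets of ATF4, the transcription factor induced by amino acid shortage and stress of the endoplasmic reticulum. ATF4 binds the C/EBP-ATF response element.

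Promoter sequences are shown first because many cytosolic members are known ATF4 targets. RefSeq windows of 300 bases (250 before to 50 after a transcript start, GRCh38.p14) were found for 30 of the 36 members, 16 cytosolic and 14 mitochondrial. The C/EBP-ATF response element was searched as TGATGNAA on both strands. It was present in 7 of 16 cytosolic members (43.8%) and in 1 of 14 mitochondrial members (7.14%), beside 3.62% of all 35116 windows and 4.46% of the 27305 genes with a window. The difference between the classes was not tested, and 6 members without a window were not searched. The stretches that hold it follow, each read 5′ to 3′ on the strand of its gene, with the match in capitals. Where the capitals read TTGCATCA or TTTCATCA, the element lies on the opposite strand of the gene.
AARS (chr16:70289678-70289723, minus strand): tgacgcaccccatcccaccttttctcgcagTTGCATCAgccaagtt
CARS (chr11:3057410-3057455, minus strand): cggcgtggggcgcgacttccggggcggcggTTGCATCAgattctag
GARS (chr7:30594815-30594860, plus strand): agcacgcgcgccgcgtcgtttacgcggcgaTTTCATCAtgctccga
IARS (chr9:92293695-92293740, minus strand): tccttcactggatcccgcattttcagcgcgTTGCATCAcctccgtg
MARS (chr12:57488034-57488079, plus strand): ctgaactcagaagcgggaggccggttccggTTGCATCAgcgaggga
NARS (chr18:57621807-57621852, minus strand): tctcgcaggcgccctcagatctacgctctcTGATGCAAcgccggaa
TARS (chr5:33440937-33440982, plus strand): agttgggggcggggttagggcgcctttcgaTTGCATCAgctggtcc
YARS2 (chr12:32756079-32756124, minus strand): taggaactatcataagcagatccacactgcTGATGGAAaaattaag

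In 6 of the 7 cytosolic genes the 8 letters lay within 33 bases of the RefSeq start, and in AARS they lay 187 bases before it. In GENCODE the AARS gene reaches to 70289707 and holds the match, so this distance depends on the start used. The matched letters were TTGCATCA or its reverse complement in 6 of these 7 genes, with GARS as the exception. The cAMP response element and the E-box were searched in the same windows, and no stretch can match more than 1 of the 3 patterns in full. The former, TGACGTCA, was found in 0 of 16 cytosolic and 0 of 14 mitochondrial members. It was in 1.85% of all windows and in 2.25% of the genes with a window. The E-box is CACGTG, the letters read by MYC and by the TFE family. It was found in 1 of 16 cytosolic members (6.25%) and in 3 of 14 mitochondrial members (21.4%). The background was 7.26% of all windows and 8.77% of the genes with a window. MARS2, the mitochondrial member of smallest p below, is among these 3 mitochondrial members.
MARS2 (chr2:197705328-197705371, plus strand): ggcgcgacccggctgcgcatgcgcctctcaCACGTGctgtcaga

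Depth was 15830745 to 24316740 reads per library for R1881 and 21870398 to 25317567 for the combination, and every member had at least 36 reads in each library. The library numbers in the labels run from 51 to 55 and from 71 to 75 for R1881 and from 86 to 90 for the combination. No run holds both treatments, so treatment and run cannot be told apart. Of 10 luminal prostate markers, all 10 had a row, and their summed level went from 7990 to 9270 CPM with R1881 to 4740 to 4990 CPM with the combination, with the androgen-induced KLK3 and TMPRSS2 among the 6 lower genes. Of 9 fibroblast markers, 3 had a row (COL1A1, COL3A1 and LUM), none at 0, and their summed level was 6.36 to 10.5 CPM with R1881 and 13.5 to 30.6 CPM with the combination. None of 5 leucocyte markers had a row. The reads of mitochondrially encoded genes rose from 2.78% ± 0.124 (SD, n = 10) to 3.6% ± 0.296 (SD, n = 5) of the library. The part of these shifts in the results below was not tested.

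Most cytosolic synthetase genes were slightly lower with darolutamide, and the mitochondrial genes were divided. At an adjusted p under 0.05 (limma with a trend, on log2(CPM + 0.5), fitted over all genes), 13 of 20 cytosolic members were lower, 1 was higher and 6 did not pass. Among the 16 mitochondrial members, 4 were lower and 3 higher, and 9 did not pass. Over all 17272 genes, 23.7% were lower, 22.8% were higher and 46.6% were called in either direction by the same test, against 17, 4 and 21 of the 36 members. The median log2 fold change was -0.22 for the cytosolic members, with a range from -0.55 to 0.18, and 0.03 for the mitochondrial members, with a range from -0.48 to 0.37. The median of all genes was 0. The sign was negative in 18 of 20 cytosolic and in 7 of 16 mitochondrial members. With reads scaled by library totals alone, which raises the median of all genes to 0.07, the medians were -0.15 and 0.10, and 17.5% of all genes were lower and 30.8% higher. The difference between the classes was not tested. CPM is the authors' name for read counts divided by 1 factor per library, whose derivation is not given in the sources used here. The deposited values had a smaller sum in every combination library than in any R1881 library. The factor is therefore not the library total alone. The fold changes of low genes are understated by the added 0.5.

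**Figure D1:**
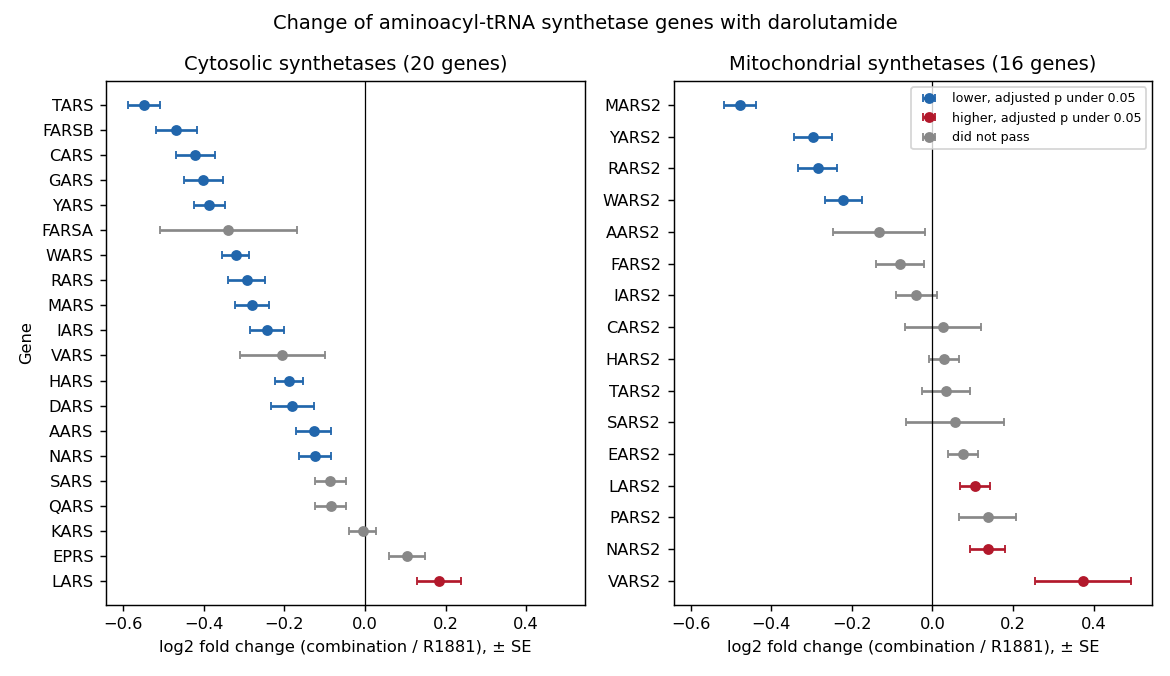
Log2 fold change (combination over R1881) of each member with its standard error from limma, for the 20 cytosolic genes on the left and the 16 mitochondrial genes on the right. Blue points passed as lower, red as higher and grey did not pass. The cytosolic points run from -0.55 for TARS to 0.18 for LARS, and the mitochondrial points from -0.48 for MARS2 to 0.37 for VARS2.

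The plot of fold changes shows that no member changed by as much as 1 log2 unit in either direction, and that the standard errors of FARSA and VARS were larger than those of any other cytosolic member. Counted without a model, all 5 combination libraries lay under all 10 R1881 libraries in 10 cytosolic and 4 mitochondrial members, beside 12.6% of all genes. The reverse order was seen in 0 cytosolic members and in 1 mitochondrial member, NARS2, beside 10.8% of all genes. The other 10 cytosolic and 11 mitochondrial members overlapped between the groups.

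TARS, the threonyl-tRNA synthetase, fell most among the cytosolic members. It lies on chromosome 5 of GRCh38 from 33440696 to 33468091 on the plus strand. Its level was 463 to 527 CPM (median 504) in the 10 R1881 libraries, and 359, 349, 362, 306 and 349 CPM in combination replicates 1 to 5. All 5 combination libraries lay below the lowest R1881 library. The fold was 0.684 (log2 fold change -0.55 with a standard error, SE, of 0.04, adjusted p = 2.96e-09 in limma). Against the R1881 libraries 51 to 55 alone the log2 fold change was -0.58, and against 71 to 75 alone it was -0.52.

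YARS, the tyrosyl-tRNA synthetase (chromosome 1, from 32775237 to 32818031, minus strand), stood at 162 to 183 CPM (median 173) with R1881. In combination replicates 1 to 5 it stood at 136, 127, 139, 125 and 134 CPM. The groups did not overlap, and the log2 fold change was -0.39 (SE 0.04, adjusted p = 1.3e-07 in limma). WARS, the tryptophanyl-tRNA synthetase, which is also induced by interferon gamma in many cell types, lies on chromosome 14 from 100333790 to 100376805 on the minus strand. It stood at 125 to 137 CPM (median 131) with R1881 and at 104, 105, 101, 98.5 and 113 CPM with the combination. Again no combination library reached the R1881 range, and its change was -0.32 on the log2 scale (SE 0.03, adjusted p = 2.75e-07 in limma).

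FARSB encodes the beta subunit of phenylalanyl-tRNA synthetase and lies on chromosome 2 from 222566899 to 222656092 on the minus strand. Its level was 157 to 184 CPM (median 171) with R1881 and 128, 128, 134, 105 and 125 CPM with the combination. The 2 ranges were apart, and the log2 fold change was -0.47 (SE 0.05, adjusted p = 5.37e-07 in limma). CARS, the cysteinyl-tRNA synthetase (chromosome 11, from 3000922 to 3057613, minus strand), had the lowest level per kilobase of the cytosolic members, 20.1 CPM per kb. It stood at 49.9 to 59.2 CPM (median 55.1) with R1881 and at 43.3, 38.3, 37.4, 41.4 and 42.8 CPM with the combination. All 5 combination libraries were below the R1881 range, and the log2 fold change was -0.42 (SE 0.05, adjusted p = 1.35e-06 in limma). These 5 cytosolic genes passed limma's test against either run of R1881 libraries alone, with adjusted p of 0.000202 (FARSB against 71 to 75) or less.

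The other 8 cytosolic genes that were lower were GARS, RARS, MARS, IARS, HARS, DARS, AARS and NARS, for glycine, arginine, methionine, isoleucine, histidine, aspartate, alanine and asparagine. Their log2 fold changes ran from -0.40 in GARS to -0.12 in NARS. The smallest of them depended on the scaling and on the R1881 run. DARS, AARS and NARS had adjusted p of 0.101, 0.327 and 0.32 in limma when reads were scaled by library totals, and DARS and NARS had 0.11 and 0.129 against the R1881 libraries 71 to 75 alone. AARS had a log2 fold change of -0.05 against the R1881 libraries 51 to 55 and of -0.20 against 71 to 75. It differed between these R1881 runs by 0.15 on the log2 scale (adjusted p = 0.0458 in limma), a test that called 0.249% of all genes as higher in libraries 71 to 75, 0.851% as lower and 1.1% in either direction. TARS2 was the only other member that differed between the R1881 runs in this test, by 0.22 (adjusted p = 0.0364), and both genes were higher in libraries 71 to 75.

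LARS, the leucyl-tRNA synthetase, which also serves as a leucine sensor upstream of mTORC1, was the single cytosolic member that rose. It lies on chromosome 5 from 146110566 to 146182696 on the minus strand. With R1881 it stood at 184 to 223 CPM (median 211), and in combination replicates 1 to 5 at 244, 242, 253, 205 and 238 CPM. Replicates 1, 2, 3 and 5 were above every R1881 library, and replicate 4 was inside the R1881 range. The log2 fold change was 0.18 (standard error 0.05, adjusted p = 0.00961 in limma). Against the R1881 libraries 51 to 55 alone it was 0.12 (adjusted p = 0.0891 in limma), and against 71 to 75 alone it was 0.24 (adjusted p = 0.0102).

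Among the 6 cytosolic genes that did not pass, EPRS, the fused synthetase for glutamate and proline, had a value of 0.10 on the log2 fold scale (adjusted p = 0.0643 in limma). It was called higher in 7 of the alternative settings, edgeR and DESeq2 on the recovered reads among them. KARS, SARS and QARS, for lysine, serine and glutamine, had log2 fold changes of -0.01, -0.09 and -0.09. SARS and QARS were called lower in some alternative settings, such as without R1881 replicate 9 (adjusted p = 0.0375 and 0.0183 in limma). FARSA and VARS, for the alpha subunit of phenylalanyl-tRNA synthetase and for valine, had larger values with wide errors and are described with the GC content of the transcripts below.

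**Figure D2:**
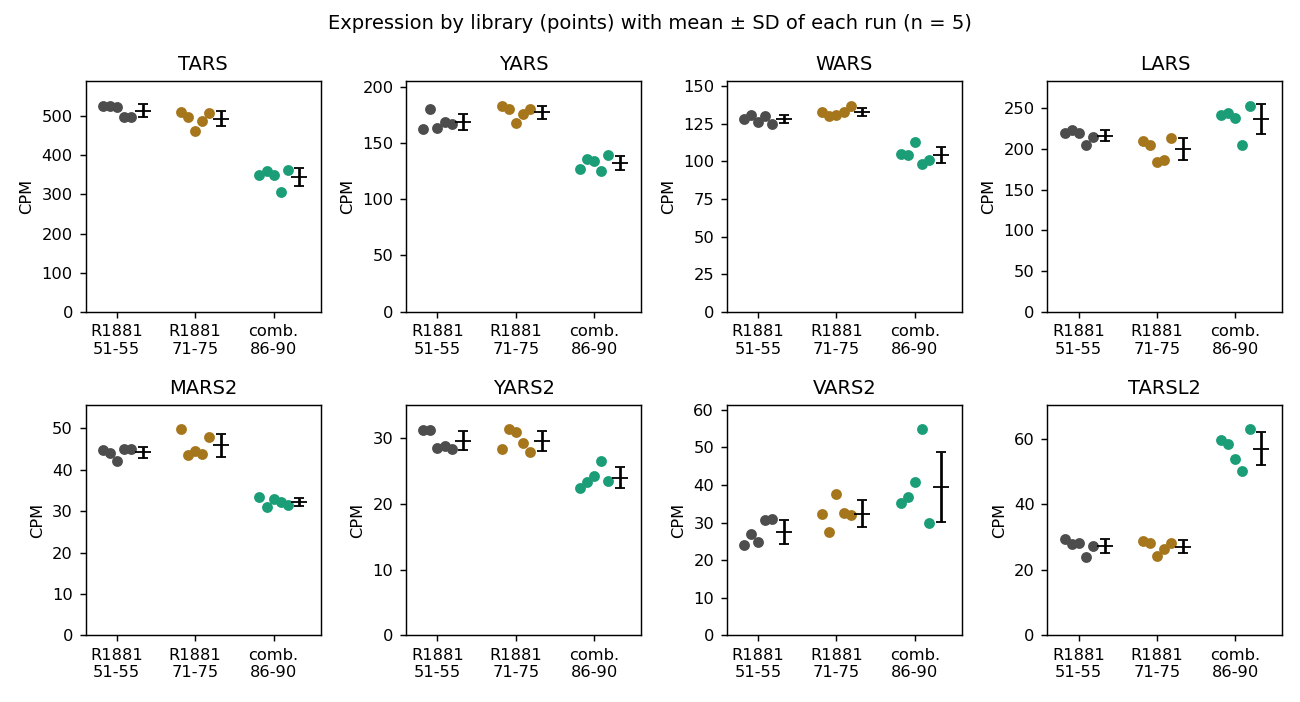
Level in CPM of 8 named genes in each library (points), with the mean and SD of each run of 5 libraries beside them, for R1881 libraries 51 to 55, R1881 libraries 71 to 75 and combination libraries 86 to 90. TARS, YARS, WARS, MARS2 and YARS2 lie lower in every combination library than in any R1881 library, TARSL2 lies higher in every one, and LARS and VARS2 overlap.

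The levels by library show that both R1881 runs stood apart from the combination for these 6 non-overlapping genes. MARS2, the mitochondrial methionyl-tRNA synthetase, had the smallest p of the mitochondrial members and lies on chromosome 2 from 197705369 to 197708395 on the plus strand. It stood at 42.0 to 49.7 CPM (median 44.6) with R1881 and at 30.9, 33.3, 31.5, 32.1 and 33.0 CPM in combination replicates 1 to 5. Every combination library was below the R1881 range, and the log2 fold change was -0.48 (SE 0.04, adjusted p = 2.08e-08 in limma). It was -0.45 and -0.50 against the R1881 runs 51 to 55 and 71 to 75.

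YARS2, the mitochondrial tyrosyl-tRNA synthetase (chromosome 12, from 32727490 to 32755897, minus strand), stood at 27.9 to 31.3 CPM (median 29) with R1881 and at 23.3, 22.4, 23.4, 26.5 and 24.3 CPM with the combination. The ranges were apart, and its change was -0.30 on the log2 scale (SE 0.05, adjusted p = 4.36e-05 in limma). Of its exon bases, 18.1% are shared with a gene on the opposite strand, and the strand setting of the counting is not given in the sources used here. The same limit holds for MARS, WARS and HARS, with opposite-strand shares of 12.4%, 10.6% and 8.5%. RARS2, for arginine (chromosome 6, from 87513459 to 87590028, minus strand), stood at 29.8 to 35.6 CPM (median 32.6) with R1881 and at 28.8, 26.6, 26.2, 24.4 and 27.7 CPM with the combination. No library of the combination reached the R1881 range, and the log2 fold change was -0.29 or, as a fold, 0.821 (adjusted p = 8.71e-05 in limma). WARS2, for tryptophan (chromosome 1, from 119031216 to 119140654, minus strand), stood at 28.0 to 32.9 CPM (median 29.6) with R1881 and at 26.8, 24.7, 26.5, 23.7 and 26.1 CPM with the combination. It too did not overlap, and its change was -0.22 on the log2 scale (adjusted p = 0.000654 in limma). The cytosolic genes of the same 4 amino acids, MARS, YARS, RARS and WARS, were also lower.

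The 3 mitochondrial genes that rose did so by less certain amounts. NARS2, the mitochondrial asparaginyl-tRNA synthetase (chromosome 11, from 78435620 to 78575194, minus strand), stood at 29.2 to 34 CPM (median 32.5) with R1881 and at 34.4, 34.9, 38.1, 34.4 and 34.8 CPM with the combination. All 5 combination libraries were above the R1881 range by a small margin, and the log2 fold change was 0.14 (SE 0.04, adjusted p = 0.0143 in limma). Against the R1881 libraries 51 to 55 alone the adjusted p was 0.0844, and without combination replicate 3 it was 0.0562. LARS2, for leucine (chromosome 3, from 45388561 to 45554726, plus strand), stood at 76.7 to 90.3 CPM (median 85.2) with R1881 and at 91.2, 88.8, 87.7, 92.2 and 95.4 CPM with the combination. In LARS2, 3 of 5 combination libraries were above the R1881 range. Its log2 fold change was 0.11 (adjusted p = 0.0294 in limma), with an adjusted p of 0.125 against the R1881 libraries 71 to 75 alone.

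VARS2, the mitochondrial valyl-tRNA synthetase, had the highest fold change of the 36 and lies on chromosome 6 from 30914205 to 30926459 on the plus strand. It stood at 24.1 to 37.5 CPM (median 31.0) with R1881 and at 36.9, 35.1, 29.8, 54.8 and 40.8 CPM with the combination. The groups overlapped, and combination replicates 3 and 4 were the lowest and the highest of their group. The log2 fold change was 0.37 (standard error 0.12, adjusted p = 0.0159 in limma), and it was 0.33 (adjusted p = 0.0132) without these 2 libraries and 0.26 (adjusted p = 0.175) against the R1881 libraries 71 to 75 alone. Of its exon bases, 63% are shared on the same strand with other annotated genes, so its reads are uncertain. The 9 mitochondrial members that did not pass were AARS2, CARS2, EARS2, FARS2, HARS2, IARS2, PARS2, SARS2 and TARS2, with log2 fold changes from -0.13 to 0.14. In some alternative settings EARS2, HARS2, PARS2 and TARS2 were called higher. AARS2 was called lower without combination replicate 4 (adjusted p = 0.0207 in limma). In SARS2, 48.2% of exon bases are shared on the same strand with other annotated genes.

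**Figure D3:**
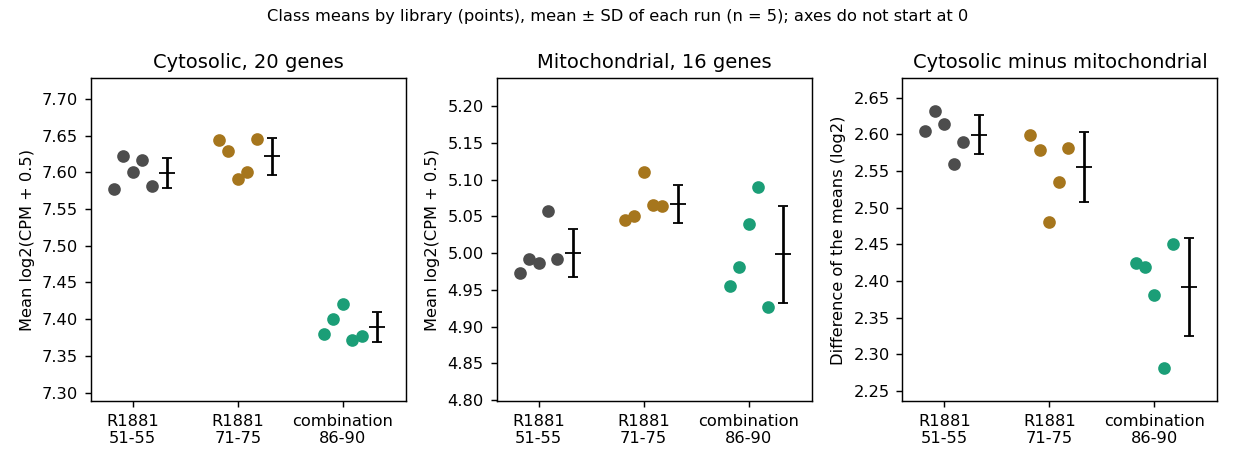
Mean log2(CPM + 0.5) of the 20 cytosolic members, of the 16 mitochondrial members and the difference between these means in each library, with the mean and SD of each run of 5 libraries. The vertical axes do not start at 0. The cytosolic mean is 7.58 to 7.65 with R1881 and 7.37 to 7.42 with the combination, and the mitochondrial means overlap.

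Averaged over its genes in each library, the cytosolic class stood at 7.61 ± 0.03 (SD, n = 10) on the log2(CPM + 0.5) scale with R1881 and at 7.39 ± 0.02 (SD, n = 5) with the combination. The ranges, 7.58 to 7.65 and 7.37 to 7.42, did not overlap. The mitochondrial class stood at 5.03 ± 0.05 (SD, n = 10) and 5.00 ± 0.07 (SD, n = 5), and its ranges overlapped. The difference between the classes within a library was 2.48 to 2.63 with R1881 and 2.28 to 2.45 with the combination, and the gap was narrower in each combination library than in any R1881 library. These averages weight all genes equally and are given without a test. In both groups the gap was narrowest in the library whose levels rose most with the GC content of the transcripts, described below. These libraries were R1881 replicate 6 and combination replicate 4. It was widest where levels fell most with GC content, in R1881 replicate 10 and combination replicate 3. After a correction for GC content the median log2 fold changes were -0.20 (cytosolic) and 0.07 (mitochondrial). The part of GC content in the gap was not tested. Per kilobase of transcript, the median level in R1881 was 71.0 CPM per kb for the cytosolic genes (20.1 to 188) and 14 CPM per kb for the mitochondrial genes (1.33 to 69.7).

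Setting the 2 enzymes of an amino acid side by side gave 17 pairs, since EPRS pairs with EARS2 and PARS2 and FARS2 pairs with both subunits of the cytosolic enzyme. In 13 pairs the change of the cytosolic gene was the lower of the 2, and in 4 pairs it was the higher. The difference between the genes in a library did not overlap between treatments in 7 pairs. In 6 of these, for phenylalanine (beta subunit), histidine, isoleucine, asparagine, threonine and valine, the cytosolic gene stood lower against its partner with the combination. TARS exceeded TARS2 by 3.12 to 3.68 on the log2 scale with R1881 and by 2.56 to 2.98 with the combination. VARS exceeded VARS2 by 2.01 to 2.29 with R1881 and by 1.48 to 1.59 with the combination, although neither gene had separate ranges by itself. Methionine went the other way, since MARS exceeded MARS2 by 1.94 to 2.16 with R1881 and by 2.19 to 2.34 with the combination. No pair was tested, and the share of non-overlap over other gene pairs was not computed. Taken singly, 12.6% of all genes lay wholly below the R1881 range and 10.8% wholly above it.

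**Figure D4:**
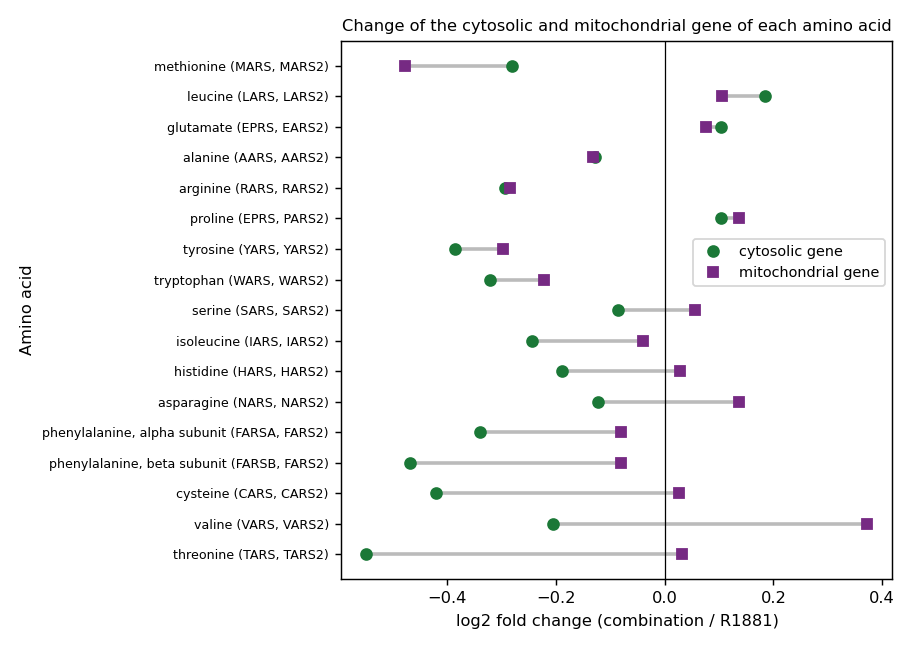
Log2 fold change (combination over R1881) of the cytosolic gene (green circle) and of the mitochondrial gene (purple square) of each amino acid, joined by a grey line. The rows are ordered by the difference between the 2 changes, from methionine at the top, where the cytosolic gene fell less, to threonine at the bottom, where TARS stands at -0.55 and TARS2 at 0.03.

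The plot of pairs also shows amino acids whose 2 genes had nearly the same value, such as arginine with -0.29 in RARS and -0.29 in RARS2. HARS and HARS2, the cytosolic and mitochondrial histidyl-tRNA synthetases, were chosen for description after their values were seen, because they are neighbours transcribed away from each other on chromosome 5. Their RefSeq starts are 84 bases apart. In GENCODE the genes overlap, since HARS reaches to 140691537 and HARS2 begins at 140691430. The bases between these starts, read on the plus strand (the strand of HARS2) and without any of the 3 patterns, are shown as the stretch that both promoters share.
HARS and HARS2 (chr5:140691371-140691454, plus strand): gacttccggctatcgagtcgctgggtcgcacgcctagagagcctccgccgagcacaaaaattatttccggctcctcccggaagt

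HARS stood at 97.4 to 108 CPM (median 103) with R1881 and at 86.5, 88.5, 93.4, 93.9 and 86.5 CPM with the combination. The ranges were apart, and the log2 fold change was -0.19 (SE 0.03, adjusted p = 0.000171 in limma). HARS2 stood at 58.6 to 66.0 CPM (median 61.8) with R1881 and at 61.4, 63.8, 66.8, 61.2 and 65.5 CPM with the combination. It overlapped, and its change was 0.03 on the log2 scale (adjusted p = 0.558 in limma). Within a library HARS exceeded HARS2 by 0.63 to 0.82 on the log2 scale with R1881 and by 0.40 to 0.61 with the combination.

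The cytosolic members were also grouped by the multisynthetase complex and by known targets of ATF4, and the differences between these groups were not tested. The counts in each stand beside 23.7% of all genes lower and 22.8% higher. Of the 8 enzymes of the multisynthetase complex, 4 were lower (DARS, IARS, MARS and RARS), 1 was higher (LARS) and 3 did not pass, with a median log2 fold change of -0.13. Of the 12 enzymes outside it, 9 were lower and 3 did not pass, with a median of -0.33. Of the 3 scaffold proteins of the complex, 1 was lower and 2 did not pass. EEF1E1, also called AIMP3, stood at 17.5 to 21.9 CPM (median 19.0) with R1881 and at 15.6, 16.9, 18.6, 14 and 17.1 CPM with the combination, where 4 of 5 libraries were below the R1881 range. Its log2 fold change was -0.24 (adjusted p = 0.00836 in limma), and AIMP1 and AIMP2 did not pass, with -0.08 and -0.01.

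Of the 12 cytosolic members listed as known ATF4 targets, 9 were lower, 1 was higher and 2 did not pass (median log2 fold change -0.26), and of the other 8, 4 were lower and 4 did not pass (median -0.20), against 23.7% lower and 22.8% higher over all genes. All 7 cytosolic genes whose promoter stretch is printed above were lower. These 7 are among the 9 lower known targets, so the 2 counts are not independent. Of the 9 cytosolic genes with a window and no match, 4 were lower and 5 did not pass. DARS and YARS (lower), VARS (did not pass) and LARS, the only cytosolic gene called higher, had no window and were not searched. The single mitochondrial gene with a match, YARS2, was lower too. ATF4 itself stood at 315 to 375 CPM with R1881 and at 319, 305, 326, 337 and 337 CPM with the combination (log2 fold change -0.10, adjusted p = 0.0515 in limma) in overlapping groups.

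A further list held ATF4 itself and other known targets of it, with no synthetase. Of its 24 genes there were 7 lower and 2 higher, and 15 that did not pass, beside 23.7% lower and 22.8% higher over all genes, with a median log2 fold change of -0.08. VLDLR, a lipoprotein receptor, fell from 41.6 to 53.8 CPM (median 48.5) to 21.5, 18.6, 22.0, 19.0 and 21.2 CPM (log2 fold change -1.22, adjusted p = 2.69e-11 in limma) with no overlap. SLC1A5, the glutamine transporter ASCT2, fell from 72.8 to 103 CPM (median 84.6) to 40.4, 40.5, 34, 57.0 and 45.5 CPM (log2 fold change -0.97, adjusted p = 4.09e-07). DDIT3, the stress factor CHOP, went the other way, from 13.0 to 17.2 CPM (median 15.2) to 19.3, 20.9, 23.6, 19.9 and 21.2 CPM (log2 fold change 0.48, adjusted p = 5.03e-06). ASNS, the asparagine synthetase and a textbook target, had a value of -0.07 on the log2 fold scale (adjusted p = 0.18).

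Among 13 other genes of tRNA charging, the 3 lower were PTRH2, QRSL1 and XPOT, the 3 higher were TARSL2, SEPSECS and PSTK, and 7 did not pass, where 23.7% of all genes were lower and 22.8% higher. TARSL2 encodes a further cytosolic threonyl-tRNA synthetase, now called TARS3, and lies on chromosome 15 from 101653596 to 101724473 on the minus strand. It stood at 23.8 to 29.3 CPM (median 28.0) with R1881 and at 58.4, 59.7, 62.9, 50.3 and 53.9 CPM with the combination. All 5 combination values exceeded all 10 R1881 values, and the fold was 2.07 (log2 fold change 1.05, SE 0.06, adjusted p = 8.96e-11 in limma). TARS, its relative, moved the opposite way, and TARS exceeded TARSL2 by 4.12 to 4.36 on the log2 scale with R1881 and by 2.52 to 2.68 with the combination. PTRH2, a peptidyl-tRNA hydrolase of mitochondria, fell from 52.3 to 62.4 CPM (median 56.6) to 40.8, 40.6, 42.3, 36 and 40.3 CPM (log2 fold change -0.51, adjusted p = 8.83e-08 in limma). SEPSECS, which makes the selenocysteine of selenocysteinyl-tRNA, rose from 23.5 to 29 CPM (median 26.3) to 36.9, 36.4, 36.5, 28.8 and 32.7 CPM (log2 fold change 0.37, adjusted p = 8e-05 in limma), with replicate 4 inside the R1881 range.

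Combination replicates 3 and 4 stood apart from the other 3 in a way that followed the GC content of the transcripts, and several members turn on them. FARSA (GC content 61.3%) stood at 76.6 to 136 CPM (median 95.1) with R1881 and at 68.8, 74.1, 46.9, 130 and 82.6 CPM with the combination. VARS (61.7%) stood at 113 to 156 CPM (median 134) with R1881 and at 108, 104, 90.4, 166 and 115 CPM with the combination. In both genes replicate 4 was far above the other 4 libraries and replicate 3 was the lowest. Their log2 fold changes were -0.34 and -0.21 (adjusted p = 0.114 and 0.126 in limma). Without replicate 4 they were -0.53 (adjusted p = 0.00264) and -0.34 (adjusted p = 0.000844), and without replicates 3 and 4 they were -0.36 (adjusted p = 0.0187) and -0.27 (adjusted p = 0.00646). After a correction for GC content, chosen after the data had been seen, both passed as lower and none of the 21 members called above lost its call.

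**Figure D5:**
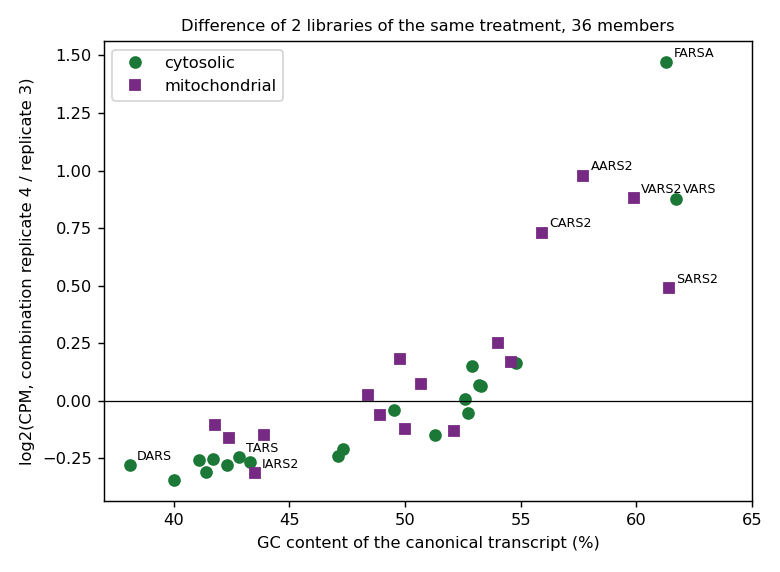
Difference in log2 CPM between combination replicates 4 and 3, which had the same treatment, against the GC content in percent of the canonical transcript, for the 20 cytosolic (green circles) and 16 mitochondrial (purple squares) members. The difference is -0.28 for DARS, at a GC content of 38.1%, and 1.47 for FARSA, at 61.3%.

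Over the 36 members, the difference between these 2 libraries of the same treatment followed GC content with a Pearson r of 0.84 and a Spearman rho of 0.91, given as a description across genes that share both libraries. Replicate 4 was the highest of the 5 combination libraries in 10 members and the lowest in 19. Over genes with a GC value and a mean of at least 1 CPM, its log2 level relative to the mean of all libraries rose by 0.35 per 10 points of GC content, while that of replicate 3 fell by 0.23 and that of R1881 replicate 6 rose by 0.23.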

How the data were processed

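Per the labels and the methods of the study, libraries made from polyA RNA with a stranded mRNA kit were sequenced as single-end reads of 50 bases, aligned to GRCh38 with STAR and counted per gene with featureCounts. The annotation, the strand setting and the versions of these tools are not given in the sources used here. The authors deposited a scaled signal per gene, which they call CPM: in each of 15 libraries 100% of the values were whole reads (within 0.001 reads) divided by 1 factor. No value column was left unused (0).

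All 17272 genes were fitted with limma 3.58.1 (R 4.3.3; trend, log2(CPM + 0.5), two-sided, Benjamini-Hochberg adjusted p under 0.05, no filter), in place of edgeR, which had been planned for raw counts. The limma and edgeR fits were tried on simulated counts, in which few genes were changed and runs and GC content had no effect. That setting is simpler than these data, and the DESeq2 and GC-corrected fits were not tried on it. The members and gene lists were chosen with earlier results of these data known, and the lists of complex members, ATF4 targets and other tRNA charging genes came from general knowledge. Values were given for the 5 members of smallest p in each class, for members that passed against the larger direction of their class and for the 3 genes of smallest p in each further list. FARSA, VARS, HARS, HARS2, ATF4 and ASNS were added after their values were seen.

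The study calls the libraries biological replicates, and p-values here measure only how these libraries vary. Same-numbered libraries were treated as unpaired, because their deviations from the group means had correlations of -0.139 to 0.335. The alternatives were edgeR 4.0.16 and DESeq2 1.42.0 on the recovered reads, scaling by totals, pseudocounts of 0.1 and 1, a mean of at least 1 CPM, the replicate number as a block, either R1881 run alone, and leaving out combination replicates 3 and 4 together or each library in turn. The GC correction (natural spline with 5 degrees of freedom, fitted on genes that averaged 1 CPM or more, applied to 13848 genes) and the fit of replicates 1 to 5 without the block were chosen after seeing the data. Positions and GC content are from GENCODE 44 which may not be the annotation that was counted. Figures were drawn with matplotlib 3.10.9.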

Additional observations from a re-analysis of the deposited data

Results flagged for a closer look

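In 4 of the 90 groups of values tested (the 36 members and 9 further named genes in each treatment group), the most extreme library stood apart from the others by Dixon's criterion, which chance alone meets in about 1 of 20 groups. QARS, the glutaminyl-tRNA synthetase, was lowest in R1881 replicate 9 at 193 CPM, where the next library was at 211 and the highest at 227 CPM. TARS was lowest in combination replicate 4 at 306 CPM, with the next library at 349 and the highest at 362 CPM, and its log2 fold change without that library was within the range of -0.57 to -0.51 found on leaving out each library. CARS2, the mitochondrial cysteinyl-tRNA synthetase, was highest in R1881 replicate 6 at 40.2 CPM, where the next was at 34.3 and the lowest at 28.1 CPM. NARS2 was highest in combination replicate 3 at 38.1 CPM, where the next was at 34.9 and the lowest at 34.4 CPM, and without that library its adjusted p in limma was 0.0562.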

How the results depend on the processing

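Of the 21 members called, all 21 kept direction and call with edgeR, DESeq2, either other pseudocount, the filter at 1 CPM and the GC correction. With reads scaled by totals 3 calls were lost, with R1881 libraries 51 to 55 alone 3, with 71 to 75 alone 4, and without combination replicates 3 and 4 together 2. On leaving out each library in turn, 6 of 315 calls were lost: AARS without combination replicate 2 or 3, NARS without 4, LARS2 without 1 or 5 and NARS2 without 3. The cause was not tested.

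The number of cytosolic members called lower was 12 to 15 and of mitochondrial members 4 to 5 on leaving out each library. Cytosolic members called higher numbered 1 and became 2 with edgeR, DESeq2, scaling by totals, the GC correction and without combination replicates 3 and 4, and 0 with R1881 libraries 51 to 55 alone (1 to 2 on leaving out a library, 2 without R1881 replicate 10 or combination replicate 4). Mitochondrial members called higher numbered 3 and became 6 with scaling by totals, 5 with the GC correction and 1 with R1881 libraries 71 to 75 alone (2 to 4 on leaving out a library). The cytosolic median of -0.224 became -0.153 with totals and -0.196 with the GC correction, and the mitochondrial median of 0.028 became 0.098 with totals and -0.048 with R1881 libraries 71 to 75 alone.

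ATF4 targets called lower, 7, were 6 to 11 on leaving out a library, with 11 without combination replicate 4, and those called higher, 2, were 1 with R1881 libraries 71 to 75 alone and 5 with the GC correction. Of the other tRNA charging genes, 3 were lower, which became 1 with totals, with R1881 libraries 71 to 75 alone and without combination replicates 3 and 4 (1 to 3 on leaving out a library, 1 without combination replicate 2 or 4), and 3 were higher, which became 7 with totals and 6 with the GC correction. Scaffolds called lower, 1, were 0 with totals and 2 with the GC correction (1 to 2 on leaving out a library, 2 without combination replicate 2).

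With the replicate number as a block, which uses replicates 1 to 5 of each group, 11 cytosolic members were lower, 1 was higher, and 4 mitochondrial members were lower and 0 higher. The cytosolic median was -0.258, 1 other charging gene and 0 scaffolds were lower, and 5 of the 21 calls were lost (DARS, NARS, LARS2, NARS2 and VARS2). The same 10 libraries without the block gave 12, 1, 4 and 0, a median of -0.258, 1 and 0, and lost 5 calls. Only 1 of 5 combination libraries was closest to the R1881 library of its own number.

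Signs changed in 5 members that did not pass. KARS was at -0.006 and became 0.003 with edgeR, 0.008 with DESeq2, 0.066 with totals, 0.014 without combination replicates 3 and 4, 0.006 with the GC correction, and -0.025 to 0.028 on leaving out a library (0.001 without R1881 replicate 2, 0.002 without combination replicate 2 and 0.028 without 4). CARS2 became -0.060 with R1881 libraries 71 to 75 alone, -0.013 without combination replicates 3 and 4 and -0.078 to 0.102 on leaving out a library, with -0.078 without combination replicate 4. IARS2 became 0.031 with totals, 0.013 with libraries 71 to 75 alone and -0.067 to 0.011 on leaving out a library, with 0.011 without combination replicate 4. SARS2 became -0.035 with libraries 71 to 75 alone and was -0.008 to 0.111 on leaving out a library. TARS2 became -0.075 with libraries 71 to 75 alone and -0.004 with replicates 1 to 5, with or without the block.

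Treatment and library run cannot be told apart under any setting.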

Other observations

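Of the other tRNA charging genes, those that passed with smaller changes were QRSL1, a subunit of the mitochondrial glutamyl-tRNA amidotransferase, at -0.13 on the log2 fold scale (adjusted p = 0.0229 in limma), and XPOT, the nuclear exporter of transfer RNA, with -0.11 (adjusted p = 0.0433). PSTK, the kinase that acts before SEPSECS in making selenocysteinyl-tRNA, was higher by 0.24 on the log2 scale (adjusted p = 0.0219). PSTK stood at 3.77 to 5.38 CPM (median 4.91) with R1881 and at 5.15 to 6.31 CPM (median 5.58) with the combination, so the groups overlapped. These genes were chosen for description after their values were seen.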
